A study of Homo sapiens with 6 samples.

Results

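The transcripts described here are those of 35 genes of the PI3K, Akt and mTOR signaling route, taken by gene symbol from the 60605 genes of a deposited RNA-seq table. They cover growth factor receptors and insulin receptor substrates (4 genes), PI3-kinase catalytic subunits (5), PI3-kinase regulatory subunits (3), phosphatases (4), Akt kinases and their activating kinase PDK1 (3), mTOR complex proteins (5), the TSC complex and Rheb (3), GSK3 and FOXO targets of Akt (5), and mTORC1 targets (3).

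Poly(A)-selected RNA was sequenced from MDA-MB-231 cells, an established human triple-negative breast cancer line, which carried either a control hairpin (shControl, 3 libraries) or a hairpin against PUS1 (shPUS1, 3 libraries). PUS1 is a pseudouridine synthase, an enzyme that converts uridine to pseudouridine in RNA. Both hairpins were delivered by lentivirus, the PUS1 hairpin from the puromycin-resistant pLKO.1 vector with puromycin selection, and the backbone of the control hairpin was not given in the sources used here. The shPUS1 columns of the table carry a single knockdown number, so 1 hairpin line stands for the knockdown, and whether the replicates were selected separately was not given in the sources used here, so that p-values measure the spread between these libraries.

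In this route, an activated receptor such as the insulin or IGF1 receptor recruits PI3-kinase, directly or through insulin receptor substrates, and PI3-kinase phosphorylates inositol lipids of the plasma membrane. These lipids bring Akt to the membrane, where PDK1 and the mTORC2 complex activate it, while lipid phosphatases and the PHLPP phosphatases act in the opposite sense. Active Akt restrains GSK3, the FOXO transcription factors and the TSC complex, and through the small GTPase Rheb it raises mTORC1 activity, which phosphorylates S6 kinases and 4E-BP1. These steps are regulated largely by phosphorylation of the proteins, which transcript levels do not report.

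Library totals lay between 14241505 and 19625998 estimated counts. PUS1 itself was at 2.57, 4.66 and 2.18 FPKM (counts per kilobase of exon, scaled to the library total) in shControl replicates 1, 2 and 3 and at 1.13, 0.95 and 0.93 FPKM in shPUS1 replicates 1, 2 and 3, without overlap. Its log2 fold change was -1.62 (SE 0.32, edgeR quasi-likelihood test, Benjamini-Hochberg adjusted p = 0.0462). shControl replicate 2 stood apart, with correlations of 0.9505 and 0.9521 with the other shControl libraries in log2 CPM (counts scaled to library size), against 0.981 between those 2 and 0.9872 to 0.9906 among shPUS1 libraries. Each comparison below was therefore made with all 6 libraries and again without shControl replicate 2. The line's markers vimentin (VIM, 286 to 498 FPKM) and AXL (135 to 250 FPKM) were abundant in every library. Both were lower in every shPUS1 library than in any shControl library (log2 fold changes -0.50 and -0.60, edgeR adjusted p = 0.0873 and 0.0623, and 0.0305 and 0.014 without shControl replicate 2). CD44, another marker of the line, was also lower in every shPUS1 library (-0.29, edgeR adjusted p = 0.169). KRT18 (-0.02), EGFR (0.33) and SPARC (0.47) overlapped between groups, and SPARC was low, at 0.51 to 2.23 FPKM. Estrogen receptor (ESR1) did not exceed 0.04 FPKM and the leukocyte marker PTPRC did not exceed 0.02 FPKM. Of the other hormone receptor and epithelial markers, ERBB2 was at 4.93 to 6.91, EPCAM at 2.21 to 3.12 and GATA3 at 1.55 to 2.16 FPKM. Each of these overlapped between groups. PGR did not exceed 0.01 FPKM. CDH1 was at 0.1, 0 and 0.09 FPKM in shControl and at 0.15, 0.18 and 0.16 FPKM in shPUS1 (log2 fold change 1.23, edgeR adjusted p = 0.28). At these low levels CDH1, and by count ESR1 and PGR, were higher in every shPUS1 library than in any shControl library.

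INPP4B, a phosphatase of inositol lipids formed downstream of PI3-kinase, was the 1 gene of the 34 tested that passed an adjusted p of 0.05 with all 6 libraries, and it was higher in shPUS1 by 2.19-fold. Without shControl replicate 2, 11 of the 34 passed and all 11 were higher in shPUS1: the PI3-kinase subunits PIK3CB, PIK3C2B, PIK3R2 and PIK3R3, the phosphatases INPP4B, PHLPP1 and PHLPP2, the TSC subunit TSC1, both GSK3 genes and the S6 kinase gene RPS6KB1. None of the Akt, PDK1 or mTOR complex genes passed in either comparison, and no gene of the 35 passed as lower. Of all 14748 genes tested with 6 libraries, 2.58% passed (1.74% as higher and 0.841% as lower), so that 1 of 34 members (2.94%) was near the background. Of the 15130 tested without shControl replicate 2, 18.6% passed (9.8% as higher and 8.79% as lower), against 32.4% of the members. When the absolute log2 fold change also had to reach 1, INPP4B was the 1 member left in either comparison, beside 1.36% of all genes with 6 libraries and 3.12% without shControl replicate 2.

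With all 6 libraries 27 of the 34 log2 fold changes were above 0, against 47.3% of all genes, with a median of 0.31 against -0.03 for all genes and a range from -0.44 to 1.13. The number above 0 was again 27 when shControl replicate 2 was left out, against 47.8% of all genes, with a median of 0.33 against -0.02. At an unadjusted p under 0.05, 14 members were past the threshold with all 6 libraries and 19 without shControl replicate 2, all of them higher, beside 25.5% and 34.5% of all genes in either direction. DESeq2 called 7 of 33 members with all 6 libraries (PIK3CB, PIK3C2A, INPP4B, PHLPP1, RICTOR, TSC1 and GSK3B), all as higher, beside 12.4% of all genes and 7.05% as higher. Leaving out shControl replicate 2, DESeq2 called 15 of 33, all as higher, beside 21.6% of all genes and 13% as higher. INPP5D, a lipid phosphatase of blood cells, was left out by the filter, with 0 to 2 counts in each library.

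**Figure D1:**
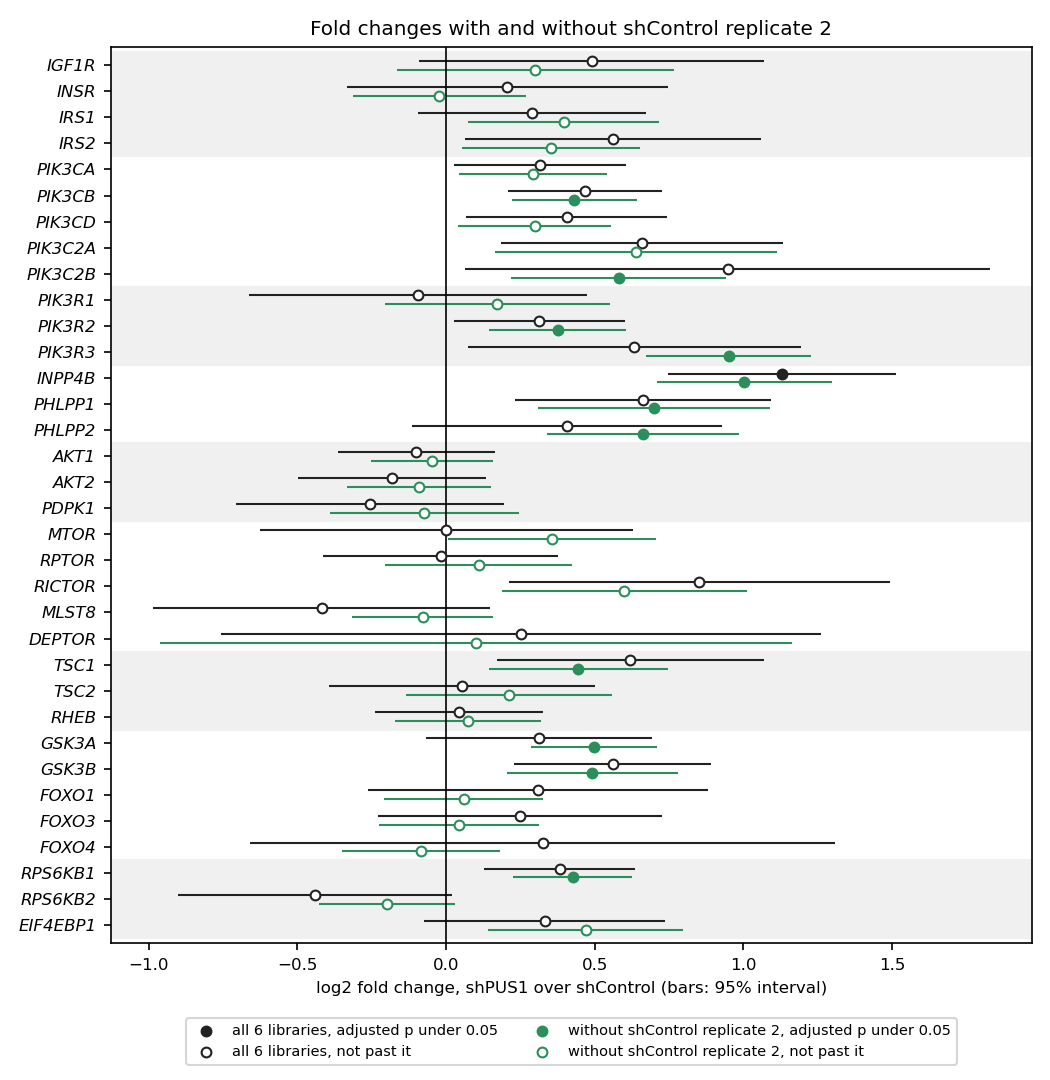
Log2 fold change of shPUS1 over shControl for the 34 tested genes, one per line, with 95% intervals as bars, from all 6 libraries (black) and without shControl replicate 2 (green), filled where the adjusted p was under 0.05. INPP4B alone is filled in black, 11 genes are filled in green, and the Akt and PDK1 genes lie between -0.26 and -0.05.

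The genes differed widely in level. EIF4EBP1, the gene of the translation repressor 4E-BP1, was highest with a mean of 70.0 FPKM, followed by RHEB with 49.1 and PIK3R2 with 23.7 FPKM. PIK3C2B (0.97 FPKM), DEPTOR (0.317 FPKM) and INPP5D (0.005 FPKM) were lowest. Of the rest, 17 genes lay between 5 and 20 FPKM and 12 between 1 and 5 FPKM. The libraries of EIF4EBP1 all lay above those of RHEB, and those of RHEB above those of PIK3R2, which overlapped with PIK3CD below it.

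**Figure D2:**
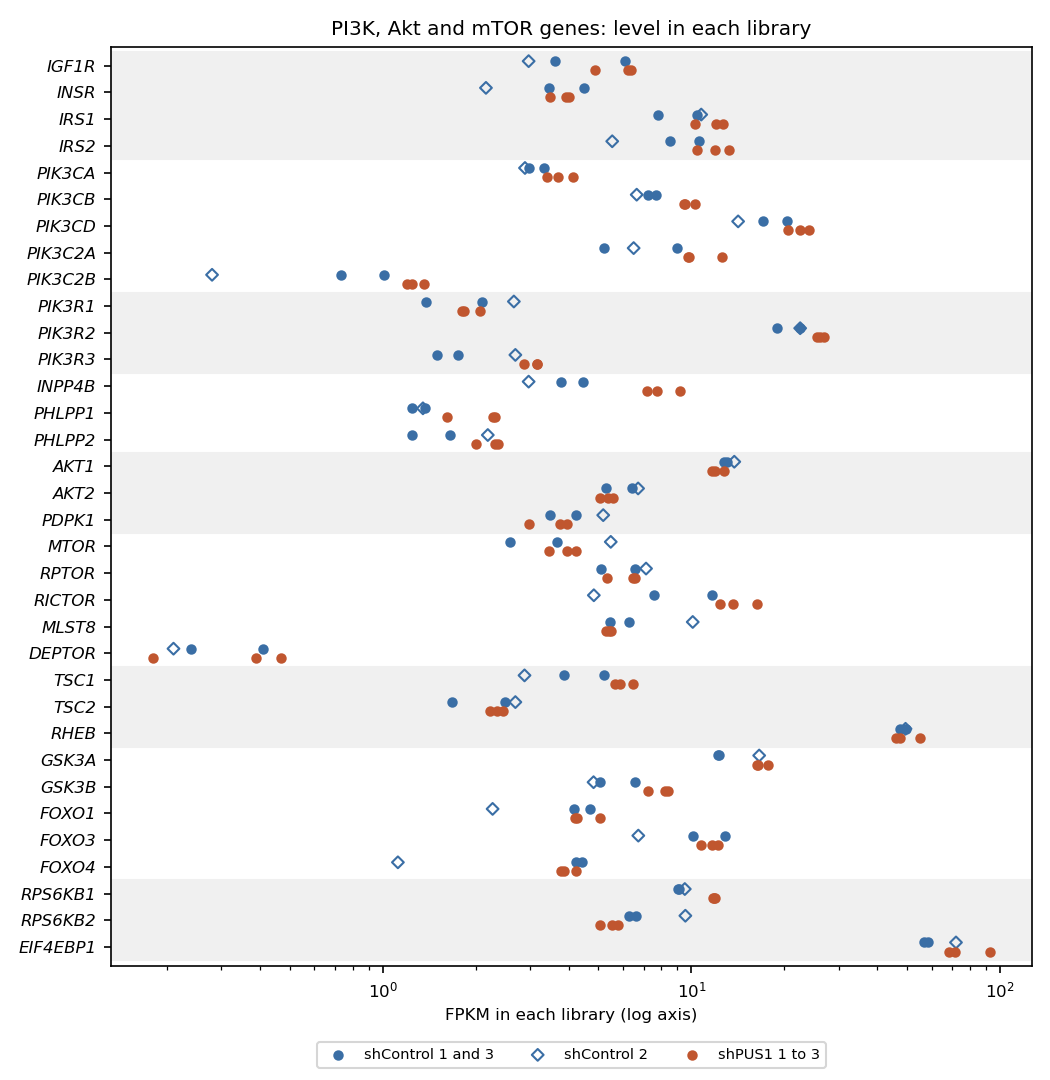
FPKM of each gene in each library on a log axis, with shControl replicates 1 and 3 as filled blue points, shControl replicate 2 as an open diamond and shPUS1 libraries as orange points. INPP4B shows a gap between 4.47 and 7.18 FPKM, while the open diamond lies outside the other 2 shControl points for most genes.

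INPP4B (ENSG00000109452, on the minus strand at chr4:142023160-142847432 in the deposited table) and PIK3R3 (ENSG00000117461, minus strand, chr1:46040140-46133036) were the 2 members past the threshold in each of the 11 processing alternatives run without shControl replicate 2. The 250 bases upstream of their RefSeq starts are shown for these 2 transcripts, with TATAAA in capitals in the first and CCAAT (on either strand, so also as ATTGG) in capitals in the second.
INPP4B, chr4:142846302-142846551, GRCh38.p14, minus strand: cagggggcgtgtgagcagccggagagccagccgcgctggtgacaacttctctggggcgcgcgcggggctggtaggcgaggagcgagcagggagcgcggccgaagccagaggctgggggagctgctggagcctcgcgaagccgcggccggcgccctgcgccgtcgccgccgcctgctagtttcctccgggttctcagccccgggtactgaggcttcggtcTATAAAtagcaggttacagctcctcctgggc
PIK3R3, chr1:46133037-46133286, GRCh38.p14, minus strand: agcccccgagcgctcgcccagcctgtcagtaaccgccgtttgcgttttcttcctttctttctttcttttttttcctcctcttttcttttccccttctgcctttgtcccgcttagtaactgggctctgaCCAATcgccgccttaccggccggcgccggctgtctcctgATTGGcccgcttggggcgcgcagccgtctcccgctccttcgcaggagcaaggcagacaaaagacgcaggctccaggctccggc
The TATAAA of INPP4B begins 31 bases before the RefSeq start, and PIK3R3 had no TATAAA. The INPP4B window lies inside that gene's interval in the deposited table, which reaches further upstream, while the PIK3R3 window adjoins its interval. RefSeq windows matched 32 of the 35 genes (not DEPTOR, EIF4EBP1 or MLST8), and each motif was searched on both strands. TATAAA was found in 2 of these 32 windows (INPP4B and RPTOR) and in 10.7% of all 35116 windows of the same length. CCAAT was found in 12 of 32 (37.5%) and in 32.0% of all windows. The E-box CACGTG was found in 1 (TSC2) and in 6.35% of all windows, and the forkhead motif GTAAACA in 1 (PIK3CA) and in 2.98% of all windows. The 4 motifs share no sequence that would make one match count as another. These matches describe the letters and were not tested as sites.

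Among the phosphatases, the 3 tested genes were all higher in shPUS1 without shControl replicate 2. INPP4B was at 3.78, 2.97 and 4.47 FPKM in shControl replicates 1 to 3 and at 7.18, 9.20 and 7.71 FPKM in shPUS1. Every shPUS1 library exceeded every shControl library, and shControl replicate 2 was the lowest of all. The log2 fold change was 1.13 (SE 0.17, 95% interval 0.75 to 1.51, edgeR adjusted p = 0.0294) with all 6 libraries and 1.00 (SE 0.13, adjusted p = 0.0027) without shControl replicate 2. With shControl replicate 1 left out from all 6, the log2 fold change was 1.13 and the edgeR adjusted p rose to 0.0872. Leaving out shPUS1 replicate 1, 2 or 3 gave log2 fold changes of 1.19, 1.03 and 1.16 with edgeR adjusted p of 0.16, 0.208 and 0.163. In these 4 fits 0 to 11 of all genes passed the threshold.

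PHLPP1 and PHLPP2 encode phosphatases that remove the hydrophobic-motif phosphate of Akt. PHLPP1 was at 1.24, 1.35 and 1.37 FPKM in shControl and at 2.27, 2.31 and 1.62 FPKM in shPUS1, without overlap although shPUS1 replicate 3 lay nearer to the controls. Its log2 fold change was 0.66 (SE 0.19, edgeR adjusted p = 0.0899), and 0.70 (SE 0.17, adjusted p = 0.0259) without shControl replicate 2. PHLPP2 was at 1.24, 2.19 and 1.65 FPKM in shControl and at 2.36, 2.31 and 2.01 FPKM in shPUS1. shControl replicate 2 overlapped with the knockdown libraries and the other controls did not. Accordingly the log2 fold change was 0.41 (SE 0.23, edgeR adjusted p = 0.292) with all libraries and 0.66 (SE 0.14, adjusted p = 0.016) without that control.

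Of the receptors and substrates, none of the 4 genes passed the threshold in either comparison. The substrate genes IRS1 and IRS2 had log2 fold changes of 0.29 and 0.56 with all 6 libraries (edgeR adjusted p = 0.306 and 0.16) and of 0.40 and 0.35 without shControl replicate 2 (0.0836 and 0.0941). IGF1R, the IGF1 receptor gene, was at 3.62, 2.97 and 6.11 FPKM in shControl and at 6.22, 6.36 and 4.86 FPKM in shPUS1, and the groups overlapped through shControl replicate 3. INSR, the insulin receptor gene, was at 2.16 to 4.50 FPKM in shControl and 3.48 to 4.01 FPKM in shPUS1. The sign of its log2 fold change turned with the control library, from 0.21 (95% interval -0.33 to 0.75) to -0.02 (-0.31 to 0.27).

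The 5 PI3-kinase catalytic subunit genes all had log2 fold changes above 0, from 0.32 (PIK3CA) to 0.95 (PIK3C2B), and none passed the threshold with all 6 libraries. PIK3CB, the class I catalytic subunit p110-beta, was at 7.26, 6.65 and 7.66 FPKM in shControl and at 9.47, 10.3 and 9.56 FPKM in shPUS1. The libraries of each group lay close together and the groups did not overlap. Its log2 fold change was 0.47 (SE 0.11, edgeR adjusted p = 0.0637), and 0.43 (SE 0.09, adjusted p = 0.0163) without shControl replicate 2.

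PIK3CA, the p110-alpha gene, was at 2.98, 2.89 and 3.33 FPKM in shControl and at 3.71, 4.12 and 3.41 FPKM in shPUS1. PIK3CD, the p110-delta gene, was at 17.04, 14.2 and 20.4 FPKM in shControl and at 24.1, 22.5 and 20.5 FPKM in shPUS1. In both genes the groups were separate, by a margin smaller than the spread within a group. Their edgeR adjusted p-values were 0.168 and 0.142 with all 6 libraries and 0.0966 and 0.0988 without shControl replicate 2.

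The class II genes PIK3C2A and PIK3C2B were at very different levels. PIK3C2A was at 5.22, 6.5 and 8.96 FPKM in shControl and at 9.77, 12.5 and 9.85 FPKM in shPUS1, with log2 fold changes of 0.66 (SE 0.21, edgeR adjusted p = 0.108) and 0.64 (SE 0.21, adjusted p = 0.0652). PIK3C2B was at 0.73, 0.28 and 1.01 FPKM in shControl and at 1.2, 1.36 and 1.24 FPKM in shPUS1. shControl replicate 2, with 56 counts, was the lowest by far and the shPUS1 libraries were close to each other. The log2 fold change went from 0.95 (SE 0.38, edgeR adjusted p = 0.174) to 0.58 (SE 0.16, adjusted p = 0.0374) when that library was left out.

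Among the regulatory subunits, PIK3R3, which encodes p55-gamma, showed the larger difference. It was at 1.5, 2.69 and 1.75 FPKM in shControl and at 3.15, 3.16 and 2.86 FPKM in shPUS1. All shPUS1 libraries were higher, but shControl replicate 2 lay much closer to them than to its own group. The log2 fold change was 0.63 (SE 0.24, edgeR adjusted p = 0.16) with all libraries and 0.95 (SE 0.12, adjusted p = 0.0026) without that control, the smallest adjusted p of the members there. PIK3R2, encoding p85-beta, was at 18.9, 22.5 and 22.6 FPKM in shControl and at 26.8, 25.4 and 26.1 FPKM in shPUS1. The groups were separate, and the log2 fold change was 0.31 (SE 0.12, edgeR adjusted p = 0.17) and 0.37 (SE 0.10, adjusted p = 0.0358). PIK3R1, encoding p85-alpha, was at 1.38, 2.66 and 2.09 FPKM in shControl and at 1.83, 2.06 and 1.80 FPKM in shPUS1, inside the control range, and its log2 fold change turned from -0.09 to 0.17.

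None of the genes of Akt and of its activating kinase passed the threshold. AKT1 was at 12.77, 13.77 and 13.02 FPKM in shControl and at 12.73, 11.96 and 11.68 FPKM in shPUS1. The groups thus nearly touched, and on TMM-scaled CPM they overlapped. Its log2 fold change was -0.10 (95% interval -0.36 to 0.16, edgeR adjusted p = 0.606), and -0.05 (-0.25 to 0.16, adjusted p = 0.743) without shControl replicate 2. AKT2 gave -0.18 (-0.50 to 0.13, edgeR adjusted p = 0.426) and PDPK1, the PDK1 gene, gave -0.26 (-0.71 to 0.20, adjusted p = 0.432) with all libraries. The intervals without shControl replicate 2 were -0.33 to 0.15 for AKT2 and -0.39 to 0.25 for PDPK1, so that a doubling or halving of either transcript lay outside them.

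Of the mTOR complex genes, RICTOR, the defining subunit of mTORC2, had the third largest log2 fold change of the members with all 6 libraries. It was at 7.54, 4.83 and 11.7 FPKM in shControl and at 13.7, 16.3 and 12.4 FPKM in shPUS1. The groups did not overlap, but the controls spread more widely than the knockdown libraries. The log2 fold change was 0.85 (SE 0.28, edgeR adjusted p = 0.117) with all 6 libraries and 0.60 (SE 0.18, adjusted p = 0.0512) without shControl replicate 2, which missed the threshold. RPTOR, the mTORC1 counterpart, was at 5.08, 7.13 and 6.59 FPKM in shControl and at 6.56, 6.46 and 5.32 FPKM in shPUS1, with the groups overlapping and log2 fold changes of -0.02 and 0.11.

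MTOR, the kinase shared by both complexes, was at 2.59, 5.48 and 3.67 FPKM in shControl and at 4.24, 3.96 and 3.46 FPKM in shPUS1. Its value depended on shControl replicate 2, the highest library, with a log2 fold change of 0.00 (SE 0.27, edgeR adjusted p = 0.998) with it and 0.36 (SE 0.15, adjusted p = 0.139) without it. MLST8, a subunit of both complexes, was at 5.46, 10.1 and 6.30 FPKM in shControl and at 5.29 to 5.51 FPKM in shPUS1, and its log2 fold change went from -0.42 to -0.08. DEPTOR, an inhibitor of mTOR, had 8 to 21 counts per library, and its 95% interval (-0.76 to 1.26) included a doubling.

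TSC1 and TSC2 form the complex that turns Rheb off. TSC1 was at 3.86, 2.88 and 5.20 FPKM in shControl and at 5.85, 6.49 and 5.64 FPKM in shPUS1, without overlap. The log2 fold change was 0.62 (SE 0.19, edgeR adjusted p = 0.109) with all libraries and 0.45 (SE 0.13, adjusted p = 0.0483) without shControl replicate 2, narrowly past the threshold. TSC2 was at 1.68, 2.69 and 2.49 FPKM in shControl and at 2.45, 2.35 and 2.23 FPKM in shPUS1, inside the control range, with log2 fold changes of 0.05 and 0.21 (adjusted p = 0.88 and 0.354 by edgeR). RHEB was at 49.6, 49.4 and 47.2 FPKM in shControl and at 47.2, 46.1 and 55.1 FPKM in shPUS1, with a log2 fold change of 0.04 (95% interval -0.24 to 0.33).

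GSK3A and GSK3B encode the kinases that Akt inhibits. GSK3B was at 5.06, 4.82 and 6.58 FPKM in shControl and at 8.24, 8.37 and 7.23 FPKM in shPUS1. The groups were separate, and the log2 fold change was 0.56 (SE 0.14, edgeR adjusted p = 0.0729), and 0.49 (SE 0.13, adjusted p = 0.0301) without shControl replicate 2. GSK3A was at 12.2, 16.6 and 12.3 FPKM in shControl and at 16.3, 16.5 and 17.7 FPKM in shPUS1. Here shControl replicate 2 fell among the knockdown libraries, and leaving it out moved the log2 fold change from 0.31 (SE 0.16, edgeR adjusted p = 0.269) to 0.50 (SE 0.09, adjusted p = 0.00991).

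The FOXO transcription factors, which Akt keeps out of the nucleus, had lower fold changes when that control was left out. FOXO4 was at 4.22, 1.12 and 4.43 FPKM in shControl and at 4.23, 3.87 and 3.78 FPKM in shPUS1. With its low value included the log2 fold change was 0.33 (SE 0.43) and without it -0.08 (SE 0.12). FOXO1 went from 0.31 to 0.06 and FOXO3 from 0.25 to 0.04, and none of the 3 genes passed the threshold (edgeR adjusted p from 0.454 to 0.822 over both comparisons).

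The mTORC1 targets differed among themselves. RPS6KB1, the gene of S6 kinase 1, was at 9.03, 9.52 and 9.09 FPKM in shControl and at 11.9, 11.8 and 11.8 FPKM in shPUS1. Both groups were tight and separate, with log2 fold changes of 0.38 (SE 0.11, edgeR adjusted p = 0.0929) and 0.43 (SE 0.09, adjusted p = 0.0142). RPS6KB2, the gene of S6 kinase 2, was at 6.28, 9.56 and 6.61 FPKM in shControl and at 5.06, 5.53 and 5.79 FPKM in shPUS1. All shPUS1 libraries were lower, with log2 fold changes of -0.44 (SE 0.20, edgeR adjusted p = 0.213) and -0.20 (SE 0.10, adjusted p = 0.199). EIF4EBP1 was at 56.7, 72.0 and 58.5 FPKM in shControl and at 71.6, 68.4 and 92.8 FPKM in shPUS1, with shControl replicate 2 inside the knockdown range and shPUS1 replicate 3 above all others. Its log2 fold change was 0.33 (SE 0.18, edgeR adjusted p = 0.271) and 0.47 (SE 0.14, adjusted p = 0.0534).

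**Figure D3:**
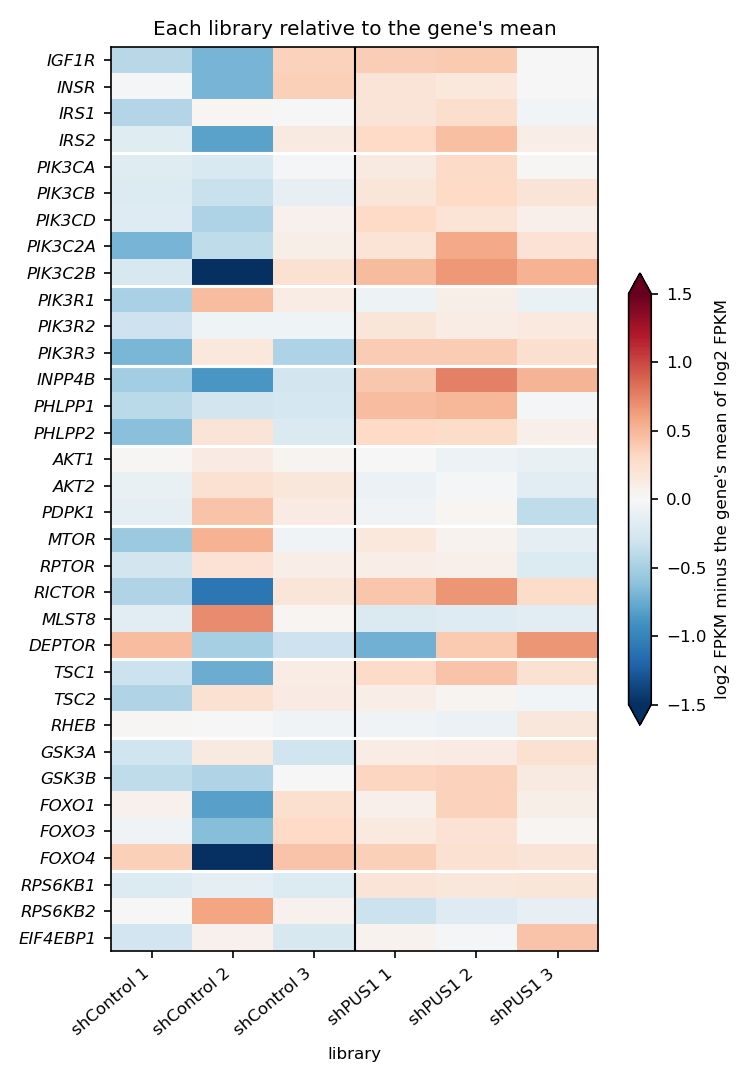
Log2 FPKM of each tested gene in each library minus the mean over the 6 libraries, as colour, with red above and blue below the mean and the ends of the scale at 1.5. The shPUS1 columns are mostly red from IRS2 to PIK3C2B and at INPP4B, and the shControl replicate 2 column holds the extremes, with FOXO4, PIK3C2B and RICTOR low and MLST8 high.

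On CPM scaled by TMM (edgeR's library scaling), 14 of the 34 genes had all shPUS1 libraries above all shControl libraries and 1 (RPS6KB2) had them below, beside 18.8% and 17.3% of all genes. Leaving out shControl replicate 2 gave 18 and 1, beside 25.3% and 25.7%. That library lay above both other controls in 18 members and below both in 14 (the share over all genes was not computed). Its median absolute log2 difference from the mean of the other 2 was 0.49 over the members and 0.43 over all genes, whereas shControl replicates 3 and 1 differed by 0.26 and 0.22. What set this library apart was not tested.

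The comparison without shControl replicate 2 rested on 2 controls, and each of the remaining 5 libraries was left out in turn. Leaving out shControl replicate 1 or 3 as well kept 1 control, with no spread between controls, so the genes called in those fits are not named. In the fits without a shPUS1 library, INPP4B, PIK3R3 and GSK3A passed the threshold each time, with largest edgeR adjusted p of 0.0117, 0.0204 and 0.0492. PIK3CB, PHLPP1, PHLPP2, GSK3B and RPS6KB1 passed only without shPUS1 replicate 3, and PIK3C2B, PIK3R2 and TSC1 in none of these fits. The number of members called was 3 without shPUS1 replicate 1 or 2, where 6.47% and 7.68% of all genes were called. It was 8 without shPUS1 replicate 3, where 12.2% of all genes were called.

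Ratios between related members within a library are free of library scaling, and they are given here without a test. The RPS6KB1 to RPS6KB2 ratio of FPKM was 1.44, 0.996 and 1.38 in shControl and 2.36, 2.12 and 2.04 in shPUS1. The PIK3R3 to PIK3R1 ratio was 1.09, 1.01 and 0.837 in shControl and 1.72, 1.53 and 1.59 in shPUS1. The RICTOR to RPTOR ratio was 1.48, 0.677 and 1.77 in shControl and 2.08, 2.52 and 2.33 in shPUS1. These 3 ratios, like TSC1 to TSC2 and PIK3CB to PIK3CA, were higher in every shPUS1 library than in any shControl library. How often gene pairs in general separate in this way was not computed. For PIK3R3 to PIK3R1 the value of shControl replicate 2 lay between those of the other controls, although each of the 2 genes alone was above both of them in that library. The ratios of AKT1 to AKT2, GSK3B to GSK3A, PHLPP1 to PHLPP2, IRS2 to IRS1 and FOXO1 to FOXO3 overlapped between groups.

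**Figure D4:**
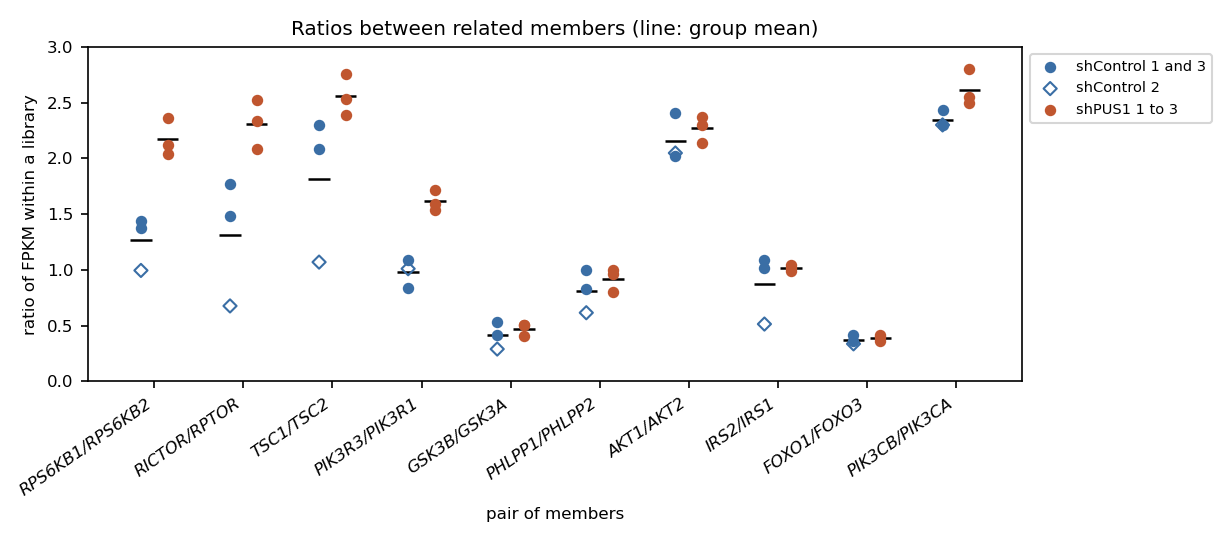
Ratio of the FPKM of 2 related genes within each library for 10 pairs, with lines at group means, shControl replicate 2 as an open diamond and shPUS1 libraries in orange. The S6 kinase ratio averages 1.27 in shControl and 2.17 in shPUS1, while the AKT1 to AKT2 ratio averages 2.16 and 2.27.

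The members had long exonic lengths per gene in the deposited table. Their median exonic length was 9611.5 bases against 4968.5 for all tested genes, and 19 of 34 were in the longest of 5 equal bins of exonic length. Over all genes the median log2 fold change went from -0.14 in the shortest bin to 0.10 in the longest, with all 6 libraries. Measured against the median of its own length bin, the median member stood at 0.35 and 25 of 34 members were above it, with INPP4B at 1.02. The part of length in the members' values was not tested further. By interval, 26 members overlapped a gene on the other strand in the deposited table, and for 4 an overlapping gene had over 10% of the member's mean count (CLSTN1 at PIK3CD, OSMR at RICTOR, PKD1 at TSC2 and ZNF526 at GSK3A). Whether counting used the strand was not given in the sources used here.

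Beyond the 35, 125 other genes of the route were taken as 6 lists, of which 114 were tested. With all 6 libraries 6 were higher and 2 lower in shPUS1, beside 1.74% and 0.841% of all genes. The comparison without shControl replicate 2 gave 18 and 10, beside 9.8% and 8.79% of all genes. Among Akt regulators and related kinases (17 genes, all tested), SGK1 and TRIB2 passed as higher with all 6 libraries, and 4 did without shControl replicate 2. SGK1, an Akt-like kinase that mTORC2 activates, was at 1.74, 1.5 and 1.67 FPKM in shControl and at 3.80, 3.93 and 3.52 FPKM in shPUS1 (log2 fold change 1.21, SE 0.13, edgeR adjusted p = 0.0147). TRIB2, a pseudokinase, was at 17.3, 15.3 and 17.1 FPKM in shControl and at 32.8, 39.9 and 33.0 FPKM in shPUS1 (log2 fold change 1.11, SE 0.12, edgeR adjusted p = 0.0175). Both were above all controls by a margin wider than the spread of either group, and PPP2R5B and TRIB3 were added as higher without shControl replicate 2 (edgeR log2 fold changes 0.67 and 0.59).

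Among phosphoinositide enzymes (18 of 22 tested), PIP4K2C and PIP5K1C, kinases that make PI(4,5)P2, were higher with all 6 libraries. PIP4K2C was at 6.99, 6.39 and 8.68 FPKM in shControl and at 12.4, 13.2 and 12.4 FPKM in shPUS1 (log2 fold change 0.80, edgeR adjusted p = 0.0413). PIP5K1C was at 5.05, 5.74 and 6.5 FPKM in shControl and at 9.03, 8.83 and 8.92 FPKM in shPUS1 (0.65, edgeR adjusted p = 0.0488). In the other comparison 5 genes of this list passed as higher, led by PIK3AP1 (0.77, edgeR adjusted p = 0.0027), an adaptor of PI3-kinase, and 1 as lower, PIK3IP1 (-1.11, adjusted p = 0.0188), an inhibitor of PI3-kinase.

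In the list of mTOR partners and lysosomal nutrient sensing (37 of 38 tested), RRAGC, a Rag GTPase gene, and FNIP1, a folliculin partner gene, were higher with all 6 libraries (log2 fold changes 0.67 and 0.86, edgeR adjusted p = 0.0462 and 0.0467). In the fit without shControl replicate 2 these were joined by FLCN, CASTOR2 and PRR5L (0.51, 0.60 and 0.60). DDIT4, whose product REDD1 restrains mTORC1, was at 141, 39.3 and 129 FPKM in shControl and at 27.7, 27.4 and 24.4 FPKM in shPUS1. It was lower in every shPUS1 library, with shControl replicate 2 between the groups, and its log2 fold change was -1.92 (SE 0.40, edgeR adjusted p = 0.0521) with all 6 libraries and -2.30 (SE 0.10, adjusted p = 8.51e-05) without that control.

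Among ligands, binding proteins and adaptors (14 of 19 tested), 2 genes of secreted IGF-binding proteins passed as lower and none as higher with all 6 libraries. IGFBP3 was at 22.2, 16.3 and 19.3 FPKM in shControl and at 11.1, 10.8 and 11.9 FPKM in shPUS1 (log2 fold change -0.75, SE 0.14, edgeR adjusted p = 0.0418). IGFBP6 was at 18.3, 18.6 and 13.7 FPKM in shControl and at 8.72, 9.08 and 8.21 FPKM in shPUS1 (-0.93, SE 0.18, edgeR adjusted p = 0.046). Without shControl replicate 2, IGFBP4 (-0.45) and IGFBP1 (-1.01) also passed as lower, and the adaptors GAB2 (0.53) and GAB1 (0.52) passed as higher.

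Of 10 tested effectors of S6 kinase and 4E-BP, none passed with all 6 libraries in edgeR, and PDCD4, a translation inhibitor, was lower (-0.63, edgeR adjusted p = 0.0194) without shControl replicate 2. Of 18 FOXO target genes none passed with all 6 libraries in edgeR and 2 by DESeq2 (BCL6 and CAT), beside 12.4% of all genes by DESeq2. Leaving out shControl replicate 2, BCL6 (0.82) and FBXO32 (0.46) passed as higher and CAT (-0.47), PDK4 (-0.70) and RBL2 (-0.35) as lower in edgeR. The called targets thus went both ways, beside 9.8% of all genes called as higher and 8.79% as lower.

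**Figure D5:**
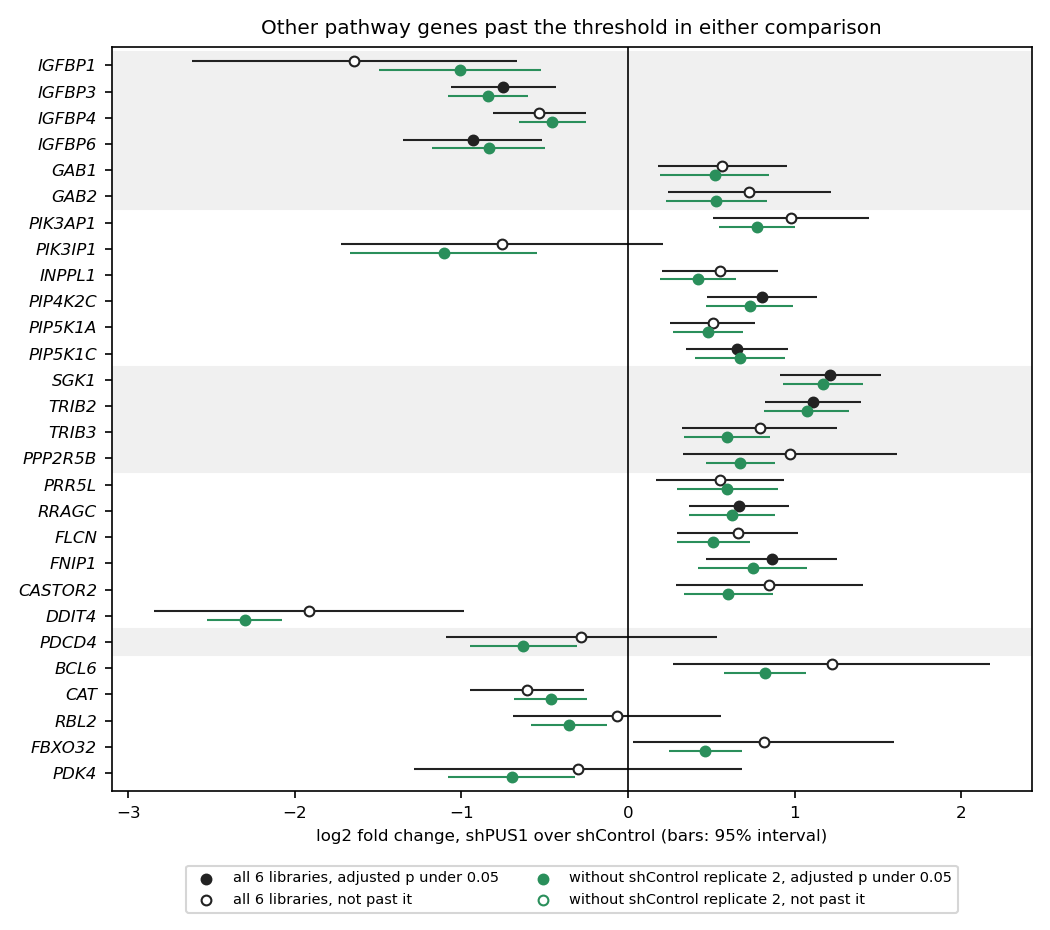
Log2 fold changes with 95% intervals for the 28 further pathway genes past the threshold in at least one comparison, drawn as for the 34 genes above. The 8 genes filled in black include SGK1 at 1.21 and IGFBP3 at -0.75, and DDIT4 lies furthest to the left.

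As a check of other cell types, COL1A2 and DCN did not exceed 0.03 FPKM, and the blood markers CD3E and HBB were at 0, while CD68, which is not restricted to blood cells, was at 40.8, 37.3 and 42.6 FPKM in shControl and at 31.2, 27.8 and 31.7 FPKM in shPUS1 (log2 fold change -0.39, edgeR adjusted p = 0.1, and -0.42, adjusted p = 0.0235, without shControl replicate 2). LUM, a fibroblast marker, was at 0.42, 0.06 and 0.21 FPKM in shControl and at 1.27, 1.74 and 1.68 FPKM in shPUS1 (log2 fold change 2.61, edgeR adjusted p = 0.0462). COL1A1, a collagen gene, was at 1.63, 0.73 and 2.35 FPKM in shControl and at 3.14, 3.53 and 3.19 FPKM in shPUS1 (1.10, edgeR adjusted p = 0.11, and 0.76, adjusted p = 0.0123, without shControl replicate 2). Both were higher in every shPUS1 library, while VIM, AXL and CD68 were lower, and the part of these genes in the members' values was not tested. In bulk RNA, fewer cells of one kind and less RNA per cell cannot be told apart.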

How the data were processed

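Poly(A) RNA-seq of 3 shControl and 3 shPUS1 libraries of MDA-MB-231 cells was analysed, grouped by the sample titles. Per the labels, the authors aligned reads with HISAT2 and counted them with HTSeq 0.6.1. The genome build, annotation and strand setting were not given in the sources used here. The deposited estimated counts per gene are not normalized, and 29.76% to 31.79% of those above 0 are not whole. Counting of whole reads does not give such values, and how they arose was not given in the sources used here. The deposited FPKM values equal those counts divided by exonic length and by library total, within 0.005. All 35 genes overlapped their intervals in GENCODE release 29 (GRCh38).

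Counts were rounded, filtered with filterByExpr and scaled by TMM. Groups were compared in edgeR 4.0.16 (R 4.3.3) by its quasi-likelihood test, with Benjamini-Hochberg adjustment over all tested genes and a threshold of 0.05 (prior count 2). Alternatives used limma 3.58.1 or DESeq2 1.42.0, other scalings, filters, a replicate block and libraries left out in turn. The edgeR test of 6 libraries was also run on simulated counts, and the outcome is not reported here. Upstream sequences came from RefSeq (GRCh38.p14). The members, the lists and the second comparison were chosen with earlier results of these data known, and leaving out each of the 5 remaining libraries, and the length bins, after seeing the data. The plan held fold changes of related members side by side, and their ratios were added to it. The genes given in full were those past the threshold in either comparison, the 3 with the largest changes, the 3 highest and the 3 lowest, their close paralogs, and for the other lists up to 3 genes each way with the smallest adjusted p. Other members were given to account for each gene. Further called genes of those lists, where few, were named after their values were seen. Depth limits the precision of the low genes. Values of some listed genes are not reported here.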

Additional observations from a re-analysis of the deposited data

How the results depend on the processing

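With all 6 libraries, the number of members past the threshold was 1 (2.58% of all genes called). It became 5 with no filter on low counts (4.75%), 7 with DESeq2 (12.4%) and 16 with limma voom and sample weights (21%). DESeq2 without shControl replicate 2 gave 15 (21.6%). In edgeR, leaving out shControl replicate 2 gave 11 (18.6%), and leaving out shControl replicate 3 gave 4 (3.14%). The other 4 fits with 1 library left out gave 0 (0% to 0.0726%). The number of other pathway genes was 8, beside the same 2.58% of all genes. It became 5 with library totals (2.01%), 21 with no filter (4.75%), 22 with DESeq2 (12.4%) and 31 with voom (21%). It became 32 with DESeq2 without shControl replicate 2 (21.6%), and 0 to 28 with 1 library left out (0% to 18.6%). Without shControl replicate 2, the 11 members became 7 with limma on log2(FPKM + 1) or log2(FPKM + 0.1) (21.4% and 21% of all genes), and 3 to 20 with a further library left out. The upper end of that range came from the fit without shControl replicates 2 and 3. That fit kept 1 control, with no spread between controls, so no conclusion is drawn from it. The fits without shControl replicate 2 and a shPUS1 library gave 3 to 8. The members' median log2 fold change of 0.31 became 0.41 with voom, and 0.27 to 0.36 with 1 library left out. PUS1 missed the threshold in 7 of 18 alternatives: on log2(FPKM + 1) (-1.001) and log2(FPKM + 0.1) (-1.48), with the replicate block, and in 4 of the 6 fits with 1 library left out (all but those without shControl replicate 2 or 3). Over all 6 of these fits its log2 fold change went from -1.84 to -1.19. The value of -1.19 came from the fit without shControl replicate 2, which passed (edgeR adjusted p = 0.00311). Libraries with the same replicate number did not deviate together (residual correlations -0.05, -0.03 and -0.19), and with the replicate number as a block 0 members, 0 other genes and, without shControl replicate 2, 2 members passed (4.42% of all genes), with PUS1 at -1.53.

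The sign turned under some alternatives for 8 genes, none of them called in the 18 alternatives to the comparison of 6 libraries. Calls from the fit without both shControl replicates 2 and 3, which kept 1 control, are not counted here. DESeq2 without shControl replicate 2 gave -0.0060 for INSR, 0.19 for PIK3R1, 0.13 for RPTOR and -0.068 for FOXO4. Voom gave 0.23 for PIK3R1, 0.19 for RPTOR and -0.30 for DEPTOR. Library totals gave -0.012 for MTOR, and upper-quartile factors -0.046 for MTOR and -0.012 for RHEB. With 1 library left out the log2 fold change went from -0.023 to 0.44 for INSR, -0.32 to 0.17 for PIK3R1, -0.23 to 0.36 for MTOR, -0.16 to 0.11 for RPTOR, -0.13 to 0.21 for TSC2, -0.040 to 0.098 for RHEB and -0.085 to 0.59 for FOXO4. INPP4B stayed above 0 in all 18 alternatives (0.94 to 1.25) and past the threshold in 13 of them, with adjusted p from 1.43e-10 to 0.208. The causes of these changes were not tested. Low counts limit INPP5D, which was not tested, and DEPTOR.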
